A study of Mus musculus with 25 samples.

Results

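The Sox2 locus was examined as 2 places on mouse chromosome 3 and everything they were joined to: the 10-kb bin that holds the body of Sox2 and the 2 neighbouring bins, 100 and 110 kb downstream, that cover its distal control region. Members were defined by position, by a rule set with earlier results of these data known. They were every listed bin pair with an end in the 10-kb bin of chromosome 3 whose last base is 34660000 (the promoter bin), 34760000 (the proximal control bin) or 34770000 (the distal control bin), in mm10 coordinates. This gave 48 distinct pairs of the 493983 listed over the 9 interaction lists. Other bins are named below by their distance from the promoter bin.

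Sox2 is a transcription factor that pluripotent cells and neural progenitors depend on, and it works with the POU factor Oct4 on shared target sites. In embryonic stem cells its expression is known to depend on a cluster of enhancers far downstream of the gene, the Sox2 control region, which carries the histone mark H3K27ac of active enhancers and is bound by pluripotency factors. Fibroblasts do not express Sox2, and reprogramming to induced pluripotent stem cells requires that the endogenous gene be switched on.

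The series holds 25 libraries in 9 groups, all of mouse cells. HiChIP joins pieces of DNA that touch inside the nucleus and keeps those that an antibody pulls down, so its values move both with proximity and with the antibody's yield at the ends, which cannot be told apart. It was used with an H3K27ac antibody in mouse embryonic fibroblasts (MEF, 2 libraries), in embryonic stem cells (ES, 2) and in cells labelled TKO without doxycycline (0 h, 3) and with it (24 h, 3), and with a KLF4 antibody on reprogramming day 3 (3), on day 6 (4) and in ES (4). Hi-C, which has no antibody step, was used in MEF (2) and ES (2). The MEF and the day 3 and day 6 cells came from E13.5 rtTA3-OKSM embryos that were heterozygous for an Oct4-GFP reporter, for the OKSM cassette (the reprogramming factors Oct4, Klf4, Sox2 and Myc) and for rtTA3. MEF were collected at passage 3 with no doxycycline. Day 3 and day 6 cells had doxycycline, which induces the cassette, with ascorbic acid. Day 3 cells were a bulk population and day 6 cells were sorted for the surface marker SSEA1. Since the cassette itself supplies Sox2, day 3 and day 6 cells carry Sox2 protein that does not come from this locus. ES cells were the V6.5 line in 2i medium. The TKO cells are also labelled V6.5 in 2i medium, and doxycycline was present for 24 h in the TKO 24 h group alone. The labels do not spell out TKO, and nothing in them says whether the libraries of a group came from separate cultures, so p-values measure the spread between these libraries, which may be technical.

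The RefSeq start of Sox2 (GRCm38.p6, chromosome 3, 34649995 to 34652461, forward strand) lies in the last 6 bases of the bin 10 kb upstream, while the rest of the gene lies in the promoter bin. Contacts of that neighbouring bin with the control region are therefore given too. The 250 bases before the start, from RefSeq, lie wholly in that upstream bin, and the bin called the promoter bin holds none of them. Promoter to control contacts below are those of the promoter bin, so they are contacts of the gene body bin. Contacts of 10-kb bins do not say which bases within a bin they reach. The 250 bases are chr3:34649745-34649994 on the forward strand, with 2 GC boxes, the letters CCGCCC searched on both strands, in capitals.

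Sox2 promoter: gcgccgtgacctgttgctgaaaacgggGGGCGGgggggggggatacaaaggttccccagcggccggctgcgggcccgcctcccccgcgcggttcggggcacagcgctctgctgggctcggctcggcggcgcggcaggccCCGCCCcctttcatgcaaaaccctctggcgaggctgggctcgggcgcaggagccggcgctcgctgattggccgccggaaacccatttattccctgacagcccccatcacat

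The stretch is 72% G and C, against a median of 52.4% over all RefSeq mouse promoters of this length. The GC boxes begin 223 bases before the start on the reverse strand and 111 bases before it on the forward strand, and 32.7% of the 32851 promoters searched held that motif. The KLF core CACCC (in 52.0% of all promoters), the SOX core CATTGT (10.7%) and the octamer ATGCAAAT (1.601%) had no match in these letters on either strand. Only these exact letters were searched, so other forms of the same sites were not looked for and may be present.

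Contacts between the Sox2 promoter and its control region were listed in the 3 H3K27ac groups of pluripotent cells and in ES Hi-C, and were not listed in MEF by either assay or in any of the 3 KLF4 lists. Values are the authors' CPM, counts scaled to the number of contacts on the same chromosome. A list holds only pairs that passed the authors' filters, a CPM above 3 and p below 0.1 in HiChIP. In Hi-C the filters were a signal of at least 15 and p below 0.01. A pair that is not listed may therefore still have had contacts. From the promoter bin to the proximal control bin the ES libraries had 19.4 and 18.8 CPM, from 189 and 183 counts. The TKO 0 h libraries had 19.999, 25.1 and 25.01 CPM, from 131, 129 and 121 counts, and the TKO 24 h libraries had 18.2, 19.8 and 16.0 CPM, from 74, 120 and 77 counts. All 3 libraries at 24 h lay below all 3 at 0 h, but only narrowly. The highest at 24 h had 19.8 CPM and the lowest at 0 h had 19.999 CPM. Of all pairs tested between these times, 17.2% were wholly lower at 24 h and 3.9% wholly higher. The change of this contact was not called by edgeR's quasi-likelihood test (adjusted p = 0.39). ES lay within the range of the 24 h group. Values come from bulk cells, so fewer cells with a contact and a weaker contact in each cell cannot be told apart.

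The contact from the promoter bin to the distal control bin was a little weaker. It had 14.98 and 16.4 CPM in ES, 14.96, 18.7 and 25.01 CPM in TKO 0 h, and 15.3, 13.1 and 15.8 CPM in TKO 24 h. TKO 0 h replicate 1 was the lowest of its group for both contacts, and for the distal bin the 3 groups overlapped. The false discovery rate (FDR) in the authors' deposited table was 6.9e-21 for the proximal and 1.1e-14 for the distal control bin in ES. In the plot of CPM by library, ES and both TKO groups stand together and the other lists have no value.

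**Figure D1:**
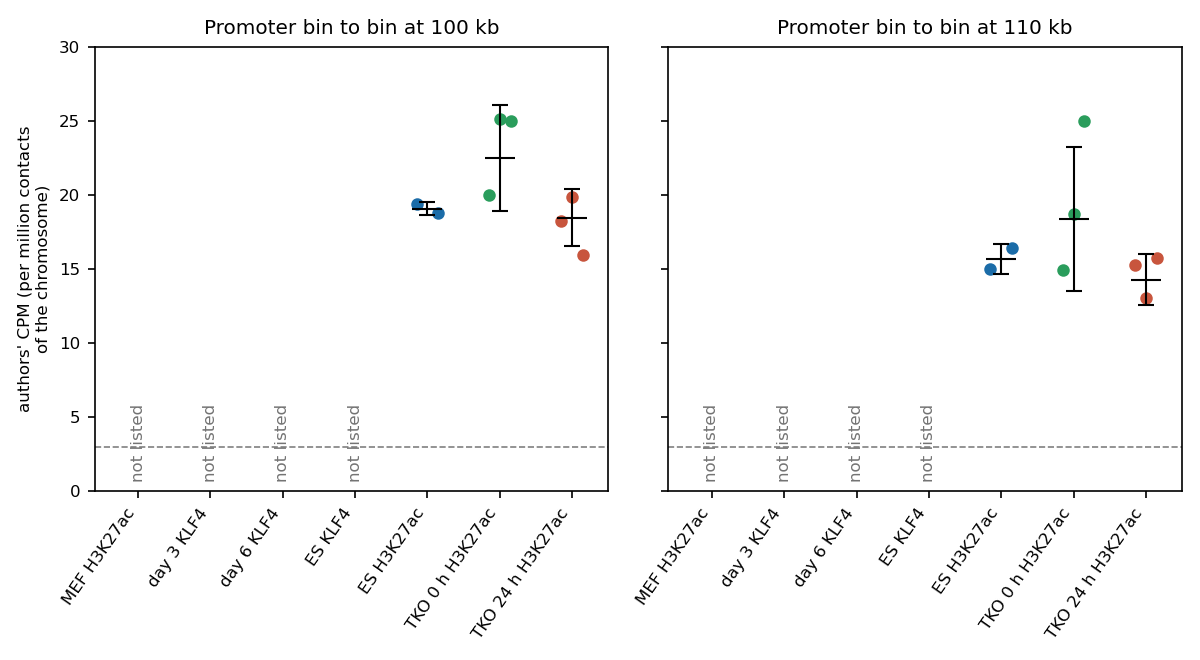
Authors' CPM of the contact between the Sox2 promoter bin and the proximal (100 kb, left) and distal (110 kb, right) control bin, for the 7 HiChIP lists on the horizontal axis; points are libraries and bars are mean ± SD after libraries that differed by no more than sampling noise were joined (n = 2). ES and TKO libraries lie between 13.1 and 25.1 CPM, above the dashed line at the CPM of 3 needed for listing, and the MEF and KLF4 lists do not hold either pair.

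At their own distance these contacts had the highest CPM of the chromosome in every H3K27ac list of pluripotent cells. The promoter to proximal control contact had the highest mean CPM of the 20 pairs on chromosome 3 that span 100 kb in ES, of 30 in TKO 0 h and of 20 in TKO 24 h. The promoter to distal control contact was likewise the highest of the 19, 23 and 11 pairs that span 110 kb. In ES Hi-C the promoter to proximal control contact, with 16 and 19 counts and an authors' signal of 19.9 and 20.4, was number 138 of the 314 listed pairs of that distance. The 2 assays have different lists and filters, and the difference in rank was not tested.

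In MEF H3K27ac no listed pair touched the promoter bin, either control bin or any other bin of the 140-kb region. Of the 2277 chromosome 3 pairs listed in MEF, 9 span 100 kb and 11 span 110 kb, and the highest p among them was 0.00074, so at this distance the CPM filter was the one that bound. A CPM of 3 on chromosome 3 was 15.01 and 20.9 counts in the MEF libraries. A promoter to control contact in MEF at the CPM of ES would have passed that filter, and one below a CPM of 3 would not be visible here. Marker genes followed the labels in H3K27ac: 6 of 6 matched ES marker genes had listed pairs in ES and 1 of 6 in MEF (Nanog). For matched fibroblast markers it was 3 of 4 in MEF and 0 of 4 in ES. Of 5 matched neural markers, 4 had listed H3K27ac pairs in ES and 1 in MEF. In Hi-C the contrast was smaller. There 4 of 6 ES markers had listed pairs in ES and 3 of 6 in MEF. Fibroblast markers had them for 3 of 4 in MEF and 2 of 4 in ES, and neural markers for 5 of 5 in ES and 3 of 5 in MEF.

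The promoter bin had 16 listed partners in ES H3K27ac, 14 in TKO 0 h and 10 in TKO 24 h, against a median of 2 for chromosome 3 bins with any listed pair in each of these lists. By number of partners it ranked 8 of 1859 such bins in ES, 15 of 2196 in TKO 0 h and 35 of 1963 in TKO 24 h. After the control bins, the partners with the highest CPM in ES were the bin at 10 kb (12.6 ± 0.15 CPM, SD, n = 2), the bin at 90 kb (10.5 ± 0.36), the bin 10 kb upstream (10.1 ± 1.9), the bin at 20 kb (7.95 ± 0.79) and the bin at 50 kb (7.85 ± 0.21). The first 3 were also the first 3 in both TKO groups, where the bin at 90 kb had 13.6 ± 0.041 CPM at 0 h and 8.83 ± 1.3 at 24 h. In TKO these SDs are over 2 samples after libraries were joined. The 3 libraries at 0 h had 13.6, 13.2 and 14.1 CPM, a wider spread than that SD.

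Contact did not fall steadily with distance. In ES the mean CPM of the promoter bin was 12.6 at 10 kb, 3.44 at 70 kb, 10.5 at 90 kb, 19.1 at 100 kb, 15.7 at 110 kb and 4.82 at 120 kb. No partner of the promoter bin beyond 140 kb was in any list. The partners hold few genes. Sox2ot, a long noncoding RNA gene that overlaps Sox2, covers the bins from 20 kb upstream to 20 kb downstream, the noncoding genes Gm34941 and Gm3143 lie in the bins at 30 to 60 kb and Gm38509 in those at 120 and 130 kb. RefSeq places no gene in either control bin.

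**Figure D2:**
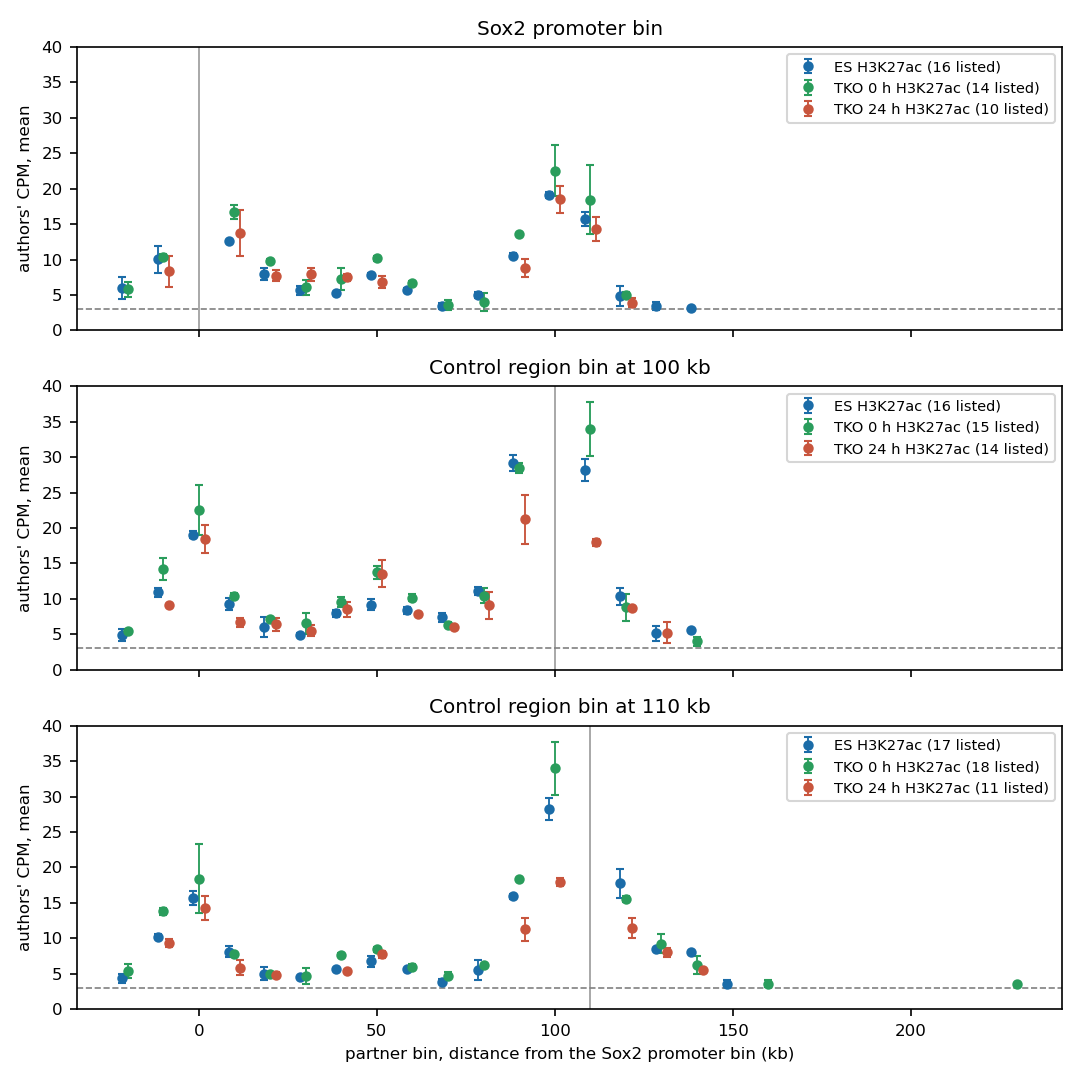
Authors' mean CPM (vertical axis, ± SD, n = 2 after joining) of each listed pair of the promoter bin (top), the proximal control bin (middle) and the distal control bin (bottom) against the partner's distance from the promoter bin in kb, for the 3 H3K27ac lists that hold them; the grey line marks the bin itself and the dashed line a CPM of 3. In the top panel CPM between the gene and the control region is lowest at 70 to 80 kb in ES and TKO 0 h, and it is highest at 100 and 110 kb (19.1 and 15.7 in ES), and TKO 24 h has the fewest partners (10, 14 and 11).

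The bin 10 kb upstream, which holds the first bases of Sox2 and the promoter sequence shown above, also reached the control region. It had 10.9 ± 0.65 CPM with the proximal and 10.2 ± 0.36 CPM with the distal control bin in ES, 14.2 ± 1.6 and 13.8 ± 0.51 CPM in TKO 0 h, and 9.20 ± 0.087 and 9.33 ± 0.61 CPM in TKO 24 h (n = 2 in each, after libraries were joined in TKO). The contact with the distal bin was the highest of its 120-kb distance on the chromosome in all 3 lists. The contact with the proximal bin came second at 110 kb in all 3, after the promoter to distal control contact.

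The control bins were as well connected as the promoter. In ES the proximal and distal control bins had 16 and 17 listed partners, in TKO 0 h 15 and 18, and in TKO 24 h 14 and 11. The distal bin ranked 4 of 1859 chromosome 3 bins in ES, 5 of 2196 in TKO 0 h and 24 of 1963 in TKO 24 h, while the proximal bin ranked 8, 12 and 7. In ES the proximal bin had 29.2 ± 1.1 CPM with the bin at 90 kb and 28.2 ± 1.6 CPM with the distal bin, and the distal bin had 17.8 ± 2.0 CPM with the bin at 120 kb and 16.0 ± 0.36 with that at 90 kb.

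A second rise in the proximal bin's profile lay at 50 kb, in Gm3143. That contact had 9.18 ± 0.80 CPM in ES, 13.8 ± 0.90 in TKO 0 h and 13.55 ± 1.9 in TKO 24 h, and was the highest pair spanning 50 kb on the chromosome in both TKO lists, of 175 and 129. By the authors' ChIP peak annotation, 12 of the 14 bins from 10 kb upstream to 120 kb downstream held an H3K27ac peak in TKO 0 h and 11 at 24 h. The bins at 30 and 70 kb had none, and the bin at 80 kb had a peak at 0 h and none at 24 h. The promoter bin and both control bins had a peak at both times.

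Of the 91 possible pairs among the 14 bins, 63 were listed in ES H3K27ac, 71 in TKO 0 h, 54 in TKO 24 h, 58 in ES Hi-C, 11 in ES KLF4 and 6 in MEF Hi-C, and 0 in MEF H3K27ac and on days 3 and 6. In the maps of the region the row of the proximal control bin is filled in all 3 H3K27ac lists of pluripotent cells, while the distal control bin had no listed pair with the bins at 30, 60, 70 and 80 kb in TKO 24 h.

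**Figure D3:**
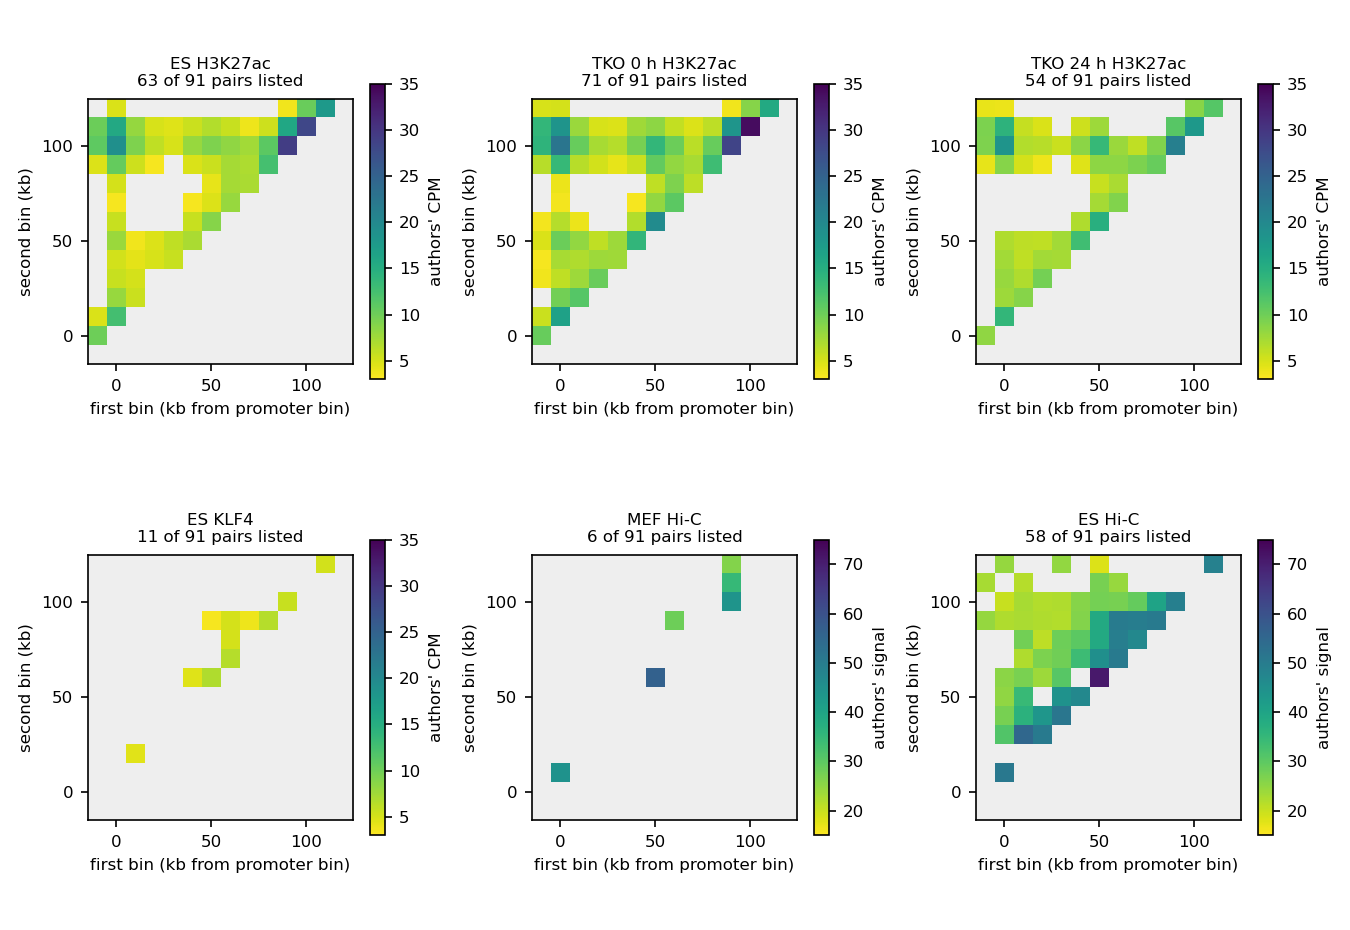
Listed pairs among the 14 bins of the Sox2 region in 6 lists, each bin placed by its distance from the promoter bin in kb (first bin horizontal, second bin vertical), coloured by the authors' mean CPM (HiChIP) or mean signal (Hi-C); grey is not listed. The 3 H3K27ac maps have a filled row at 100 kb that reaches the promoter bin, the ES KLF4 map holds 11 pairs, none at the promoter bin, and the MEF Hi-C map holds 6.

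KLF4 HiChIP in ES listed 2 pairs of the control region and none of the promoter bin. The proximal control bin was joined to the bin at 90 kb, with 5.32, 4.47, 5.81 and 7.17 CPM from 28, 14, 27 and 45 counts, and the distal control bin to the bin at 120 kb, with 5.70, 3.51, 6.02 and 5.41 CPM from 30, 11, 28 and 34 counts. KLF4 is a zinc-finger factor of the pluripotency network and one of the 4 reprogramming factors. Both pairs are between neighbours, and both had a p of 0.049 and an FDR of 1 in the authors' deposited table.

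The bin with the most KLF4 pairs in the region was not in the control region: the bins at 60 and 90 kb had 5 each, and the highest KLF4 value was 6.76 CPM, between the bins at 50 and 60 kb. All 11 KLF4 pairs of the region were also listed in ES H3K27ac, as were 74.0% of all ES KLF4 pairs. On reprogramming days 3 and 6 no KLF4 pair touched the region, from 690 and 50 listed pairs on chromosome 3. The day 6 list is so short that it says little about the locus.

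ES Hi-C listed 9 pairs of the promoter bin, 10 of the proximal and 5 of the distal control bin. All 23 distinct pairs were also in the ES H3K27ac list, which held 46, so the shared pairs were 100% of the first and 23 of 46 of the second. Over all pairs the shares were 12.1% of the ES Hi-C list and 51.2% of the ES H3K27ac list. The promoter's highest Hi-C signals were with the bins at 10 kb (50.9 ± 5.3, n = 2), 30 kb (31.3 ± 4.9), 40 kb (27.3 ± 5.3), 60 kb (25.4 ± 1.0) and 50 kb (24.9 ± 7.2). The contact from the promoter to the distal control bin was not listed in Hi-C, but the one to the bin just beyond, at 120 kb, was, with 17 and 26 counts, and it was the only member pair in Hi-C with an FDR under 0.1 in the authors' deposited table (0.019).

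MEF Hi-C listed 3 member pairs: the promoter bin with the bin at 10 kb (signal 42.4 and 46.4), and the bin at 90 kb with the proximal (49.0 and 38.7) and distal (38.4 and 31.0) control bins. Of these, the first and second were in both Hi-C lists and could be tested. Neither was called by edgeR's quasi-likelihood test at an adjusted p under 0.05, against 0.0322% called among 124204 pairs tested. The log2 change of ES over MEF was -0.03 with a 95% interval from -0.51 to 0.45 for the bin at 90 kb and the proximal control bin. It was -0.0018 with an interval from -0.47 to 0.47 for the promoter bin and the bin at 10 kb. Both are neighbour contacts, and no promoter to control pair could be tested between MEF and ES. In ES Hi-C the promoter to proximal control contact had a mean signal of 20.1, not far above the 15 needed for listing. The MEF Hi-C list was also shorter, with 10973 pairs on chromosome 3 against 15712 in ES. A somewhat weaker contact in MEF could therefore have gone unlisted, and the absence was not tested.

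The authors' domains, called from Hi-C, were the same around Sox2 in both cell types. In MEF and in ES a domain of 480 kb that began at 34640001 and ended at 35120000 on chromosome 3 held the promoter and the control region, and the promoter bin lay 10 kb inside its left edge. The upstream domain, from 33800001, had the same edges too, while the downstream domain ended at 36160000 in MEF and at 35640000 in ES. The bin 20 kb upstream of the promoter bin lies across the left edge as called. Domain edges fall on steps of 40 kb, so an edge is not placed to within 10 kb. The pairs of that upstream bin with the promoter bin and with both control bins were listed in ES and in TKO 0 h, at 4.36 to 5.95 CPM on average, and in no other list. Whether these pairs cross a boundary cannot be told at that step.

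In TKO cells, 31 member pairs were in the lists of both times and were tested. At 24 h 4 of the 31 were called lower and 0 higher, which is 12.9%, against 2.62% called in either direction, 2.04% lower and 0.576% higher among all 67728 pairs tested. The 31 pairs share their ends in the promoter bin and the control bins, so they are not separate observations. The contacts of the promoter bin with the control bins were not among the 4 called. That of the bin holding the Sox2 start with the proximal control bin was, as given below. For the promoter bin the log2 changes were -0.24 (SE 0.13, 95% interval -0.49 to 0.01, edgeR adjusted p = 0.39) to the proximal bin and -0.29 (SE 0.14, -0.56 to -0.02, adjusted p = 0.30) to the distal bin. The first interval includes 0 and the second, which is not adjusted for the number of pairs tested, does not.

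The largest change was inside the control region. The contact between its 2 bins had 36.6, 30.6 and 32.0 CPM at 0 h and 20.4, 18.4 and 14.7 CPM at 24 h, from 240, 157 and 155 counts and 83, 111 and 71 counts. All 3 libraries at 24 h lay below all 3 at 0 h, and the log2 change was -0.82 (SE 0.12, edgeR adjusted p = 3.6e-08), to 0.57 of the level at 0 h. This pair was called under each of the 11 alternatives run.

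Of the other 3 called pairs, 2 were among the 20 tested that joined a control bin to a bin other than the promoter or control bins. The remaining pair was among the 8 tested that joined the promoter bin to such a bin. The bin at 90 kb with the distal control bin went from 18.3 ± 0.18 to 11.3 ± 1.6 CPM (log2 change -0.63, SE 0.14, edgeR adjusted p = 0.0022), and DESeq2 did not call it. Each SD here is over 2 samples after libraries were joined, and it can be smaller than the spread between libraries. For this pair the 3 TKO 0 h libraries had 18.5, 16.0 and 20.5 CPM. The bin 10 kb upstream, which holds the Sox2 start, with the proximal control bin went from 14.2 ± 1.6 to 9.20 ± 0.087 CPM (log2 change -0.56, SE 0.16, adjusted p = 0.023). The promoter bin with the bin at 90 kb went from 13.6 ± 0.041 to 8.83 ± 1.3 CPM (-0.55, SE 0.16, adjusted p = 0.034). The last 2 lost their call without any of 5 single libraries each, with adjusted p from 0.051 to 0.20.

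Across the 31 pairs the changes leaned down. The log2 change was below 0 in 26 of them, with a median of -0.24 against 0.01 over all pairs tested. An unadjusted edgeR p under 0.05 was found for 11 of the 31, of which 10 were lower. Among all 67728 pairs tested, 9218 had such a p in either direction. The highest change was 0.45 (SE 0.20, adjusted p = 0.25), between the promoter bin and the bin at 30 kb, which had 5.34, 8.18 and 5.37 CPM at 0 h and 9.85, 7.28 and 7.26 CPM at 24 h. The CPM of all libraries at 24 h was outside that of all at 0 h for 13 of the 31 pairs, always lower, while 17.2% of all pairs tested were wholly lower and 3.9% wholly higher.

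Listing itself gave less contrast. Of the 44 member pairs listed at 0 h, 31 (70.5%) were listed at 24 h, close to the 72.6% of all pairs of that list. Conversely 31 of 32 at 24 h (96.9%) had been listed at 0 h, against 80.4% of all pairs, and the exception was the proximal control bin with the bin at 130 kb. The 13 pairs that left the list had means of 3.48 to 6.62 CPM at 0 h, a range that some pairs listed at both times shared, and included the promoter's contacts with the bins at 60, 70 and 80 kb.

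**Figure D4:**
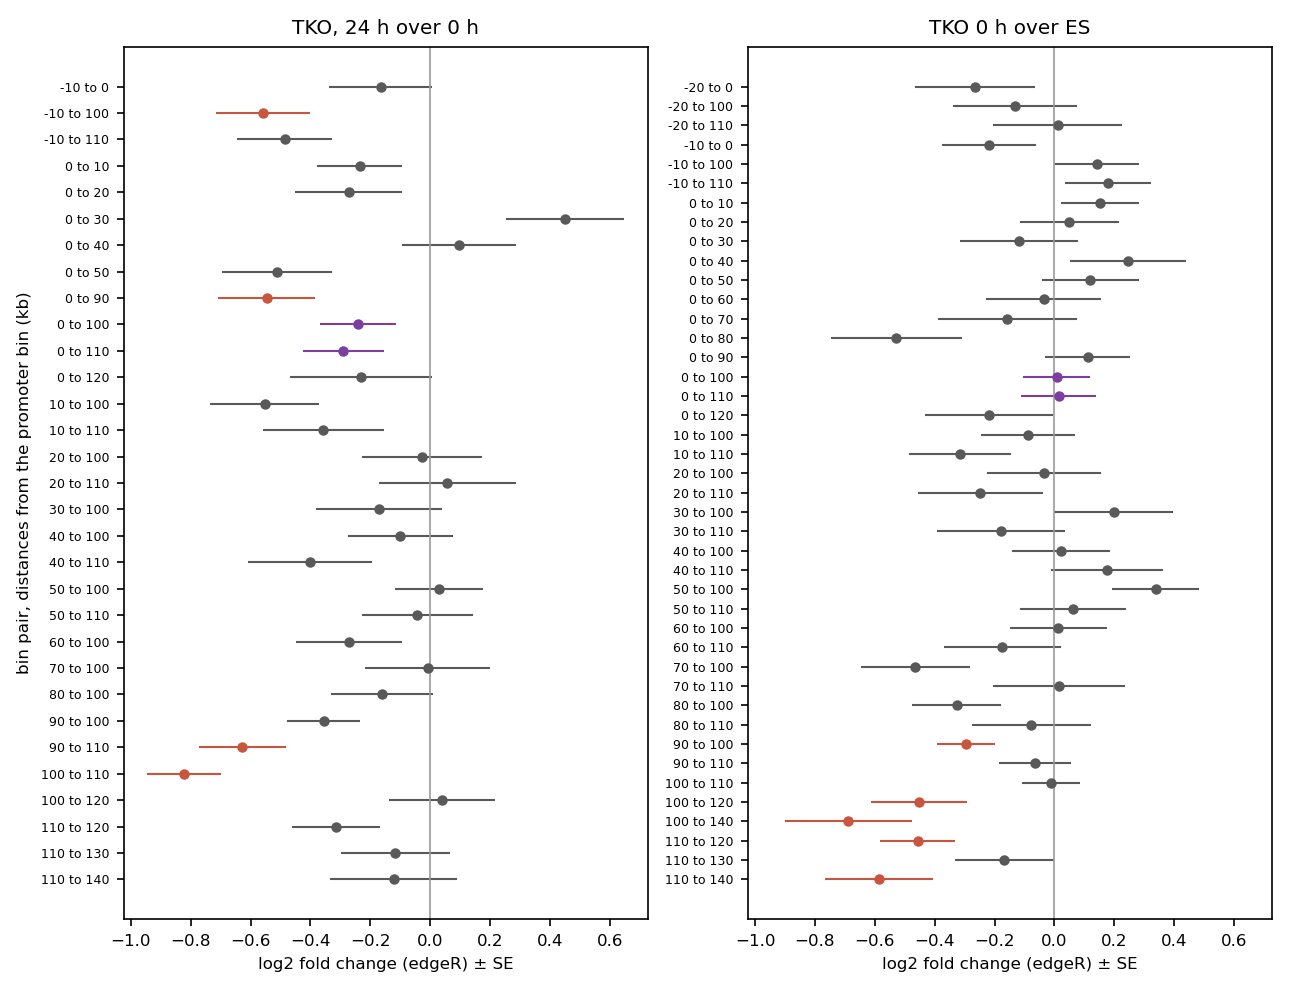
Log2 fold change (horizontal axis, edgeR, ± SE) of each member pair tested, named by the distances of its 2 bins from the promoter bin in kb, for TKO 24 h over 0 h (left, 31 pairs) and TKO 0 h over ES (right, 42 pairs); red pairs had an adjusted p under 0.05 and purple pairs join the promoter to a control bin. On the left 26 of 31 points lie below 0, with the pair inside the control region lowest at -0.82; on the right the purple points lie at 0.01.

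ES and TKO 0 h, both V6.5 cells in 2i without doxycycline, were compared over 42 member pairs. The promoter to control contacts had log2 changes of 0.01 for both control bins (SE 0.11 and 0.12), with 95% intervals from -0.21 to 0.23 for the proximal and from -0.23 to 0.26 for the distal bin. Of the 42 pairs, 5 were called lower in TKO 0 h and 0 higher, 11.9% against 16.5% of all 58574 pairs tested, and over all pairs 7.39% were called lower and 9.14% higher. All 5 joined a control bin to a bin that was neither the promoter bin nor a control bin, as did 27 of the 42 pairs tested. They were the distal bin with the bins at 120 kb (-0.46, edgeR adjusted p = 0.0055) and 140 kb (-0.59, 0.015), and the proximal bin with those at 140 kb (-0.69, 0.016), 90 kb (-0.30, 0.022) and 120 kb (-0.45, 0.038).

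These 5 calls depended on scaling. TMM factors centre the typical pair, and with contact totals alone the median of all pairs tested moved to 0.29. None of the 5 was then called, the promoter to control changes were 0.30 (edgeR adjusted p = 0.053) and 0.31 (0.067), 10 other member pairs were called, all higher in TKO 0 h, and DESeq2 called 0 of 42, with 2 at an unadjusted p under 0.05. For the change from 0 h to 24 h in TKO, contact totals moved the median of all pairs to -0.10, the 4 called pairs were called again, and 8 were called in all, each lower.

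Other genes of pluripotency were read in the same lists. Of 20 genes of the network besides Sox2, 14 could be placed by their RefSeq start. All 14 had listed H3K27ac pairs in ES, with 1 to 23 pairs and a median of 10.5, and 3 of 14 had any in MEF (Nanog, Klf2 and Klf4). Sox2, with 16 in ES and none in MEF, lay near Pou5f1, which encodes Oct4, with 17 and none, and below Nanog, with 23 and 1. That value is of the bin with the gene body, and the bin that holds the Sox2 start, the rule used for the other genes, had 6 pairs in ES, below their median. In the ES KLF4 list 12 of the 14 genes had pairs, 7 for Pou5f1 and 3 for Nanog, and the Sox2 promoter bin had none. Esrrb and Tfcp2l1, both transcription factors of the naive state, were the others with none.

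In TKO, 110 pairs of these 14 genes were tested between 0 h and 24 h, of which 8 were called lower and 0 higher, in 5 of the genes, and the median log2 change was -0.09. Over all 67728 pairs tested, 2.04% were called lower and 0.576% higher, so that 1384 of the 1774 called pairs were lower. Between ES and TKO 0 h, 123 pairs of these genes were tested. In TKO 0 h 41 were called lower and 9 higher, in 12 of the genes, with a median log2 change of -0.29. Over all 58574 pairs tested there, 7.39% were called lower and 9.14% higher. How these calls depend on scaling was not examined.

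Bins like the Sox2 promoter bin in their numbers of listed pairs were sought among 19429 bins that hold a RefSeq gene start and have any listed pair. Nearness over the 9 lists was Euclidean distance on log2 of the number plus 1. The promoter bin holds the body of Sox2 and not its start, so a gene body bin was matched to start bins. The nearest held Hspd1 and Hspe1, which encode the mitochondrial chaperonin and its partner, at a distance of 0.49, with 12, 13 and 11 pairs in ES, TKO 0 h and TKO 24 h, 1 in MEF Hi-C and 11 in ES Hi-C, and none in MEF H3K27ac or any KLF4 list. Gm16168 (1.07), Zzz3, which encodes a chromatin-binding protein (1.29), Gcn1, a gene of the translational stress response (1.40), and Bcas2, which encodes a splicing factor (1.45), came next. The median distance over all these bins was 6.26.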

How the data were processed

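Raw contact counts per pair of 10-kb bins were used as the authors deposited them. CPM (counts scaled to the contacts of the same chromosome) and the distance-normalized ratio, which was not used, are the authors' values per the file headers. The Hi-C column headed CPM is treated as a signal of the authors on a scale the headers do not explain. P-values and FDR are 1 per pair as the authors deposited them. The score in the authors' domain lists was not used. Alignment with Bowtie2 2.2.3 to mm10 is named in the submitters' processing notes, and the contact caller is not given in the sources used here. Tested on the lists, HiChIP pairs had p below 0.1 and CPM above 3 in every H3K27ac library and in KLF4 replicates 1 and 2, and Hi-C pairs p below 0.01 and signal of at least 15.

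HiChIP libraries held 48.7 to 181 M contacts. Libraries whose counts differed by no more than sampling noise (chi-square test, p at or above 0.05, while other libraries of that group did differ) were counted as 1 sample: ES KLF4 replicates 1 and 2 and replicates 3 and 4, TKO 0 h replicates 2 and 3 (p = 0.070, close to the limit) and TKO 24 h replicates 1 and 3. Counts of all pairs held by both lists of a comparison were fitted with edgeR 4.0.16 (quasi-likelihood test, filterByExpr, TMM factors on contact totals, or on count sums in Hi-C), Benjamini-Hochberg adjusted over all pairs, called at 0.05, in R 4.3.3, and the fit was tested on simulated data. Intervals of log2 changes come from the SE with a normal quantile. A pair in 1 list was not tested, and MEF and ES H3K27ac and the 3 KLF4 groups shared no member pair, so those comparisons have no test. DESeq2 1.42.0 was an alternative.

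Members and gene lists were chosen with earlier results of these data known. Named with library values were the promoter to control pairs. Named with group values were the 5 other pairs of highest mean CPM of the promoter bin and of the control region in a list, and called pairs, and the 5 gene-bearing bins most like the promoter bin. Other pairs were named after their values were seen. Sall4, Klf5, Tbx3, Prdm14, Dppa5a and Lefty1 were not placed by RefSeq start.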

Additional observations from a re-analysis of the deposited data

How the results depend on the processing

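Of the member pairs tested between TKO at 0 h and 24 h, 4 were called. With contact totals in place of TMM 8 were, with DESeq2 1 (the pair inside the control region, 4 pairs at an unadjusted p under 0.05, and no adjusted p given for some), and leaving out 1 library in turn left 2 to 4, with 2 without TKO 0 h replicate 2 or 3 and without TKO 24 h replicate 1 or 3. All were lower. The contacts of the promoter bin with the control bins stayed below 0 and uncalled in all 11 alternatives, from -0.16 to -0.35 for the proximal and -0.10 to -0.47 for the distal bin. Between ES and TKO at 0 h 5 were called lower. Contact totals gave 10, all higher, DESeq2 0, and leaving out 1 library 1 to 4, with 1 without ES replicate 1, ES replicate 2 or TKO 0 h replicate 1. The log2 change of the promoter to control contacts, near 0, was 0.30 and 0.31 with contact totals (proximal, distal; not called), -0.0077 and -0.016 with DESeq2, and with 1 library left out ran from -0.040 to 0.11 and from -0.17 to 0.19. The bin at 90 kb with the proximal control bin moved to 0.0037 with contact totals. Where leaving out a library left 1 sample in a group, that sample was assumed to vary like the others.

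The replicate numbers are not known to pair libraries: deviations of same-numbered libraries had correlations from -0.014 to 0.0051. With the replicate number as a block and all libraries separate, 5 pairs were called in TKO and 3 between ES and TKO at 0 h, where the promoter to control changes were -0.029 and -0.16, and 0 in Hi-C.

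With the authors' FDR under 0.1, the promoter bin had 3 partners in ES H3K27ac, 5 in TKO at 0 h, 3 in TKO at 24 h, 1 in ES Hi-C and 0 in MEF Hi-C. The control region then had 11, 13 and 8 pairs in those H3K27ac lists and 0 in ES KLF4, ES Hi-C and MEF Hi-C, and the promoter to control pair of ES Hi-C went to 0. Counting partners 50 kb or more away, the promoter bin had 10, 8 and 5 and the control region 17, 19 and 13 in ES, TKO 0 h and TKO 24 h, and both had 0 in MEF Hi-C and the control region 0 in ES KLF4. Widening each end by 1 bin gave 10 promoter to control pairs in ES H3K27ac, 11 in each TKO list and 8 in ES Hi-C, and none in MEF or KLF4 lists. A mean CPM of at least 5 kept both promoter to control pairs in the 3 H3K27ac lists. Comparisons with no shared member pair were not run. Low counts limit the precision of weak pairs: a CPM of 3 on chromosome 3 was 12.2 to 29.2 counts in H3K27ac libraries.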
